A study of Mus musculus with 14 samples.

Results

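Regions with a methylation peak in mouse embryonic fibroblasts (MEFs) and in no pluripotent sample were examined by MBD-seq, which sequences fragments of genomic DNA pulled down by the part of a protein that binds methylated CpGs. The peaks of all 14 samples on chromosomes 1 to 19 were merged wherever they overlapped by at least 1 bp, which gave 147237 regions. A region was kept when it held a peak of all 3 MEF cultures and of none of the 8 iPS clones and 3 ES lines, which left 260 regions, called fibroblast-only regions here. The members were thus chosen by the peaks of all 14 samples, so their presence in MEFs and absence elsewhere is a description and was not tested. They made up 0.177% of the merged regions and 0.947% of the 27458 regions with a peak in all 3 MEFs (MEF-shared regions).

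The MEFs were Aid+/+ cultures at passage 3, each grown from 1 embryo after removal of the head and gut, so that they hold the mixed mesenchymal cells of an embryonic body. The iPS cells were 4 Aid+/+ and 4 Aid-/- clones at passage 6, made from MEFs with retroviral reprogramming factors, and in the Aid-/- clones the gene for the cytidine deaminase Aid is disrupted. MEFs and iPS clones were male, carried a Nanog-GFP reporter and had a mixed C57BL6, DBA and 129S4 background. The ES lines were RF8 (129SV by its label and 129S4 in the study's methods, passage 19, ES 1), MG1.19 (129Ola, ES 2) and B6 ES (C57BL6, ES 3). Each iPS sample is a clone. Some clones of this work shared a transgene integration pattern, and whether Aid-/- iPS 3 and 4 are separate clones was not resolved here. No Aid-/- MEFs were analysed here. Filtered tags numbered 17.5 to 19.6 M in the MEF libraries (M, 1000000) and 6.65 to 15.9 M in the pluripotent ones, and peaks numbered 35546 to 57893 and 33694 to 110943, respectively. Filtered tags were thus more numerous in the MEFs than in every pluripotent library. Before duplicates were filtered the order was another one, with 27.6 to 30.1 M tags in the MEFs, 28.4 to 36.9 M in Aid+/+ iPS, 24.95 to 31.3 M in Aid-/- iPS and 20.1 to 29.7 M in ES cells. In addition, 10 of 11 pluripotent libraries held more peaks than MEF 2, the MEF culture with the most. The part of depth in the absence of a pluripotent peak was not tested. The data list peaks only, so a sample without a peak has no value at a region, and a lower share of methylated cells and a lower methylation per cell cannot be told apart. Among promoters of 10 marker genes, Nanog held a peak in 2 of 3 MEFs and Tdgf1 in 1 of 3, and neither held one in any pluripotent sample. Pou5f1, a pluripotency gene like them, held one in all 8 iPS clones and in no ES line or MEF. In the paper, pyrosequencing found the Oct3/4 (Pou5f1) promoter low in methylation in iPS cells of both genotypes. The peak thus does not show that the CpGs measured there are methylated. For Nanog, the paper's pyrosequencing found high promoter methylation in Aid+/+ MEFs and low methylation in iPS cells. Its MBD-seq comparison of these cells missed that promoter, and the paper proposes CpG density as a possible explanation. The missing Nanog peak in MEF 3 thus sets no methylation level. Col1a1, a collagen gene of fibroblasts, held a peak in all 8 iPS clones, 1 of 3 ES lines and no MEF. Zfp42, Dppa3, Col1a2, Thy1, Pdgfrb and Twist2 held none in any sample, so these promoters did not mark the cell types in a uniform way.

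In mammals a methyl group is added to cytosine mainly where a guanine follows (CpG). Most CpGs of the genome are methylated, while dense groups of them, the CpG islands found at many gene starts, usually are not. Methylation of such islands accumulates in some lineages and in cultured cells and marks imprinted genes on 1 parental allele, and much of the somatic pattern is rewritten when cells are reprogrammed to pluripotency. Capture by a methyl-binding protein depends on the number of CpGs in a fragment as well as on their methylation.

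The sequence around the MEF summit is given here for 5 named members, and for members at Hoxa3 and Zfp42. The 5 were the strongest named members without an untranslated region, with Clasrp and Pmaip1 left out. Each is 200 bp of the NCBI build 37 (mm9) reference centred on the mean summit of the 3 MEFs, 5′ to 3′, with CpGs in capitals.
Map3k10 exon, chr7:28443050-28443249, plus strand: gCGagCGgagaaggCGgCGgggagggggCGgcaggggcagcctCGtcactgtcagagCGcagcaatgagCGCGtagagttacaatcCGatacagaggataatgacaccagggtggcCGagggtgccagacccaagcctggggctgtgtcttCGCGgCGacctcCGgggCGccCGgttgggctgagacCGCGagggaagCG
upstream of Nkain3, chr4:20754301-20754500, plus strand: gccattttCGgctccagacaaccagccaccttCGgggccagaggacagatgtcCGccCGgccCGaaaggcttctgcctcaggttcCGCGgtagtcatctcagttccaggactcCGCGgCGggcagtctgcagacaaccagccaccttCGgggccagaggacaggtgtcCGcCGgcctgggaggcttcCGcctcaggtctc
near Gm4983, chr12:18142796-18142995, plus strand: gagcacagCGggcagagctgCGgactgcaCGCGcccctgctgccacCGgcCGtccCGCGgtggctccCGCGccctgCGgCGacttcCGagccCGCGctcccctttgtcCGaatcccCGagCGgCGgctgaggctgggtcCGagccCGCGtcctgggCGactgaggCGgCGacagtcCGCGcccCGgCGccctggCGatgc
Ebf3 exon, chr7:144500889-144501088, plus strand: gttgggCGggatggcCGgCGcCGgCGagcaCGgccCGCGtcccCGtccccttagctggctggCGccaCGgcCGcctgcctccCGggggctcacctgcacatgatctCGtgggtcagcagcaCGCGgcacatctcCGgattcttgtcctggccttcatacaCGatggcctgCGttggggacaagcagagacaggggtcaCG
Tbx1 promoter, chr16:18588796-18588995, plus strand: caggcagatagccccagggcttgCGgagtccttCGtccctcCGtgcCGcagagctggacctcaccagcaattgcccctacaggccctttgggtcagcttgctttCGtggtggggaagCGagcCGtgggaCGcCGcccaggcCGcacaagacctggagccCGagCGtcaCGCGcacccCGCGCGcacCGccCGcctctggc
Hoxa3 exon, chr6:52120565-52120764, plus strand: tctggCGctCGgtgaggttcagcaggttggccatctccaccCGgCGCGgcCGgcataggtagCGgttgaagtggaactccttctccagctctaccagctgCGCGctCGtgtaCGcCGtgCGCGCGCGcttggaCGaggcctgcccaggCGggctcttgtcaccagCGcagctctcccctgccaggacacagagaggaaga
Zfp42 intron, chr8:44391112-44391311, plus strand: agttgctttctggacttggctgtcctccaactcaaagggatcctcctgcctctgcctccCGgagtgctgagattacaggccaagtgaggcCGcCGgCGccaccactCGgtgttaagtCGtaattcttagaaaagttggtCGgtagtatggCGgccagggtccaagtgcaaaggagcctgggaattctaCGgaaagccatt
These windows held 20, 14, 30, 20, 19, 19 and 9 CpGs, in the order given. The window near Gm4983 is the densest of the 7, and the Zfp42 window the sparsest.

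The strength of a member was taken as the score of its weakest MEF peak, which the peak caller MACS derives from −log10 of the peak p-value, a score of 50 standing for the peak caller's cutoff. The strongest member lay in a coding exon of Clasrp, which encodes a splicing factor of the SR-related family, and held 761, 649 and 830 tags in MEF 1, 2 and 3. Scaled to tags per M filtered tags, this was 40.5 ± 4.50 (SD, n = 3), the highest value of all 260 members. All 3 cultures were high, yet a peak of 10 of 11 pluripotent samples lay within 1 kb, the nearest 114 bp away. The next member covered the promoter of Gp1bb, the beta chain of a platelet adhesion receptor, at chr16:18620524-18622565 with 446, 489 and 424 tags. Both regions are CpG-rich, at 5.34 and 6.66 CpGs per 100 bp.

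Among the 12 strongest, 10 more regions followed at lower tag densities. An exon of Map3k10, a kinase upstream of JNK signalling, at chr7:28442514-28443965 held 16.4 ± 2.16 tags per M (SD, n = 3). The region 47.5 kb from Nkain3 at chr4:20753529-20754787 held 14.1 ± 3.58, and an exon of Fbxl19, an F-box protein that binds unmethylated CpG islands, held 15.9 ± 3.53. The former was highest in MEF 1 and lowest in MEF 3 (342, 254 and 188 tags), and in the latter MEF 2 was below the other two (346, 207 and 331 tags).

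The chromosome 12 region near Gm4983, 142 kb from that gene, held 327, 301 and 339 tags. Cacng7, a regulatory subunit of neuronal ion channels, had the highest fold enrichment among the 12, 36.5 ± 1.80 (SD, n = 3). Its 196, 180 and 196 tags were close together, and no pluripotent peak lay within 5 kb. Pmaip1, the pro-apoptotic gene Noxa, held 153, 140 and 110 tags in an exon. The other members were exons of Grasp (a scaffold of glutamate receptors), Dlx2 (a homeobox factor of forebrain and neural crest) and Ebf3 (a helix-loop-helix factor), and the promoter of 9330171B17Rik beside Kif7. Their values were 10.7 ± 0.481, 13.9 ± 2.06, 16.1 ± 1.91 and 13.99 ± 1.05 tags per M, respectively (SD, n = 3). Clasrp was not alone in having pluripotent peaks nearby. Within 1 kb lay a peak of 7 pluripotent samples at Gp1bb, 8 at Map3k10, 9 at Nkain3, 7 at Grasp and 5 at 9330171B17Rik. At Fbxl19, Gm4983, Cacng7, Pmaip1, Dlx2 and Ebf3 no pluripotent sample had one within 1 kb.

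**Figure D1:**
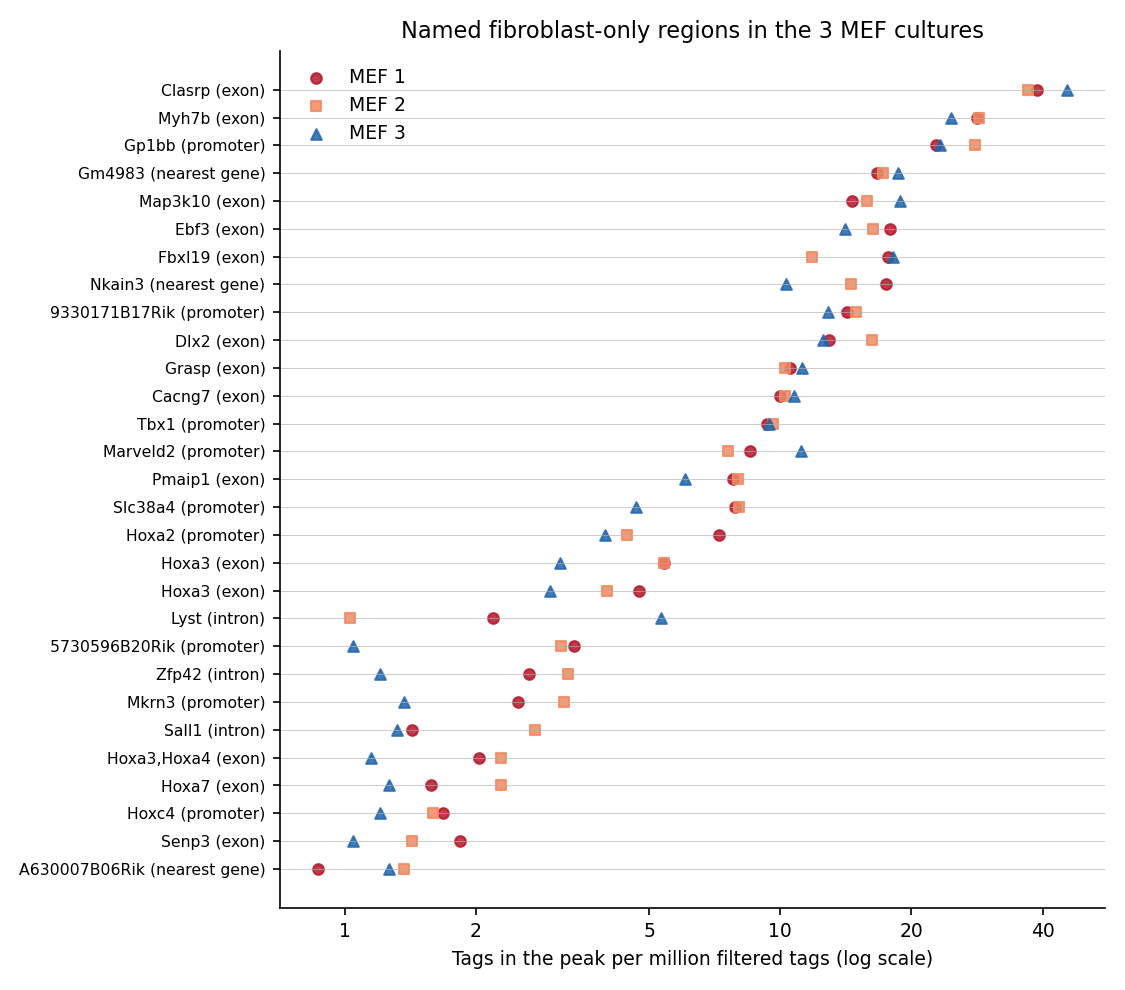
Tags per M filtered tags (log axis) in the 29 named fibroblast-only regions, with 1 point for each MEF culture. Clasrp is highest at 40.5 on average, the cultures spread most at Lyst (1.03 to 5.33), and MEF 3 is the lowest in all 6 regions of the Hoxa cluster.

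Over all 260 members the median was 3.01 tags per M in MEF 1, 2.97 in MEF 2 and 2.94 in MEF 3, and single members ran from 0.856 to 45.6. In raw tags the members spanned 15 to 830 per culture. The median coefficient of variation over the 3 cultures was 22.2%, and the summits of the 3 cultures lay within 100 bp of each other in 213 members (81.9%). Across members, tag densities had a Spearman rho of 0.902 between MEF 1 and 2, 0.814 between MEF 1 and 3, and 0.755 between MEF 2 and 3 (n = 260 regions, which share libraries and base composition). MEF 3 was the lowest culture in 118 members, MEF 2 in 92 and MEF 1 in 50. MEF 1 belongs to another processing run than MEF 2 and 3, and the pair of MEF 1 and 2, from different runs, was the closest. A run here is a group of samples whose file headers share the MACS version and the start of the job name. Whether it stands for a batch of libraries or of sequencing is not given.

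The members are short, with a median length of 969 bp (521 to 3098 bp) and 277 kb in all. The longest was an exonic region of Myh7b, a myosin heavy chain, at chr2:155454353-155457450 with 27.2 ± 2.18 tags per M (SD, n = 3). Next was an intron of Lyst, a regulator of lysosome traffic, at chr13:13845076-13847569, where the cultures held 43, 18 and 97 tags. It is also among the weakest, and with 0.0802 CpGs per 100 bp it has the fewest CpGs of any member. The third longest was the Ebf3 region above. At the weak end stood also an exon of Senp3 with 36, 25 and 19 tags and a region 11.1 kb from A630007B06Rik with 17, 24 and 23 tags.

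Most MEF-shared regions were also found in pluripotent samples. A total of 260 had none, 526 had exactly 1 and 14579 (53.1%) had all 11. Among the members, the lowest MEF score ran from 50.2, just above the cutoff of 50, through a median of 114 to 2587. Just outside stand the 526 regions with a single pluripotent peak, whose score had a median of 104 and a minimum of 50.2. In 394 of these 526 the single peak was that of ES 3, while 53 came from Aid-/- iPS 4 and none from Aid+/+ iPS 3. On the other side, 274 regions had a peak of 2 MEFs and no pluripotent sample, 150 of them lacking MEF 3. The Nanog promoter at chr6:122657367-122658706 is one of these, with 37 tags in MEF 1, 50 in MEF 2 and no peak in MEF 3. Nanog encodes a core factor of the pluripotent state. The count of 260 depended on the peak lists: it was 664 without ES 3, 418 without MEF 3, and 2864 when the same number of most significant peaks was taken from every sample.

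**Figure D2:**
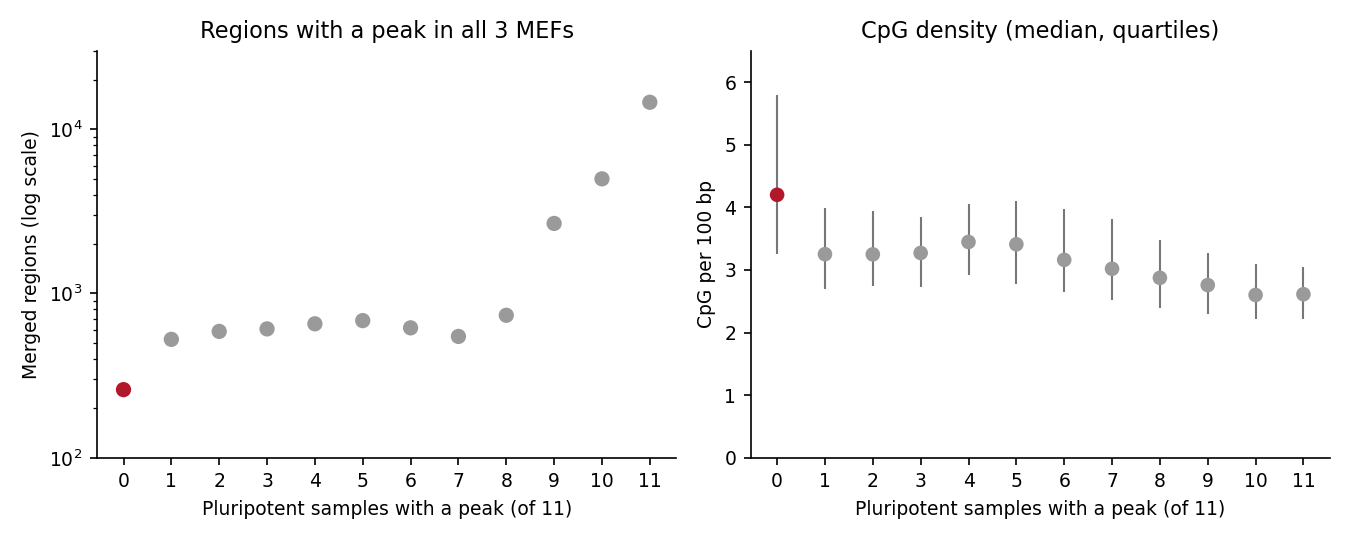
Left, number of regions with a peak in all 3 MEFs (log axis) by the number of pluripotent samples, of 11, that also held a peak. Right, their CpGs per 100 bp as median and quartiles. The fibroblast-only regions (red) are the 260 at 0, with a median of 4.20 CpGs per 100 bp, against 2.61 for the 14579 regions at 11.

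The fibroblast-only regions were rich in CpGs. Their median was 4.20 per 100 bp (95% interval of the median 3.93 to 4.51, from order statistics), with quartiles of 3.26 and 5.79. The 27198 MEF-shared regions that also held a pluripotent peak had 2.71, and the 1524 regions of all 11 pluripotent samples and no MEF had 1.92. GC content followed the same order, with medians of 57.2%, 49.6% and 47.1%. A ratio of observed to expected CpGs of at least 0.6 with at least 50% GC, a usual mark of CpG islands, was met by 90 members (34.6%), against 2.57% and 0.0656% of the other sets. The members' median was the higher one in each of the 4 locations. At promoters the median was 4.94 CpGs per 100 bp in members and 3.05 in the MEF-shared regions with a pluripotent peak, and between genes 3.82 and 2.77. No test was made, since the sets were formed by the peaks themselves. The median was 3.45 when ES 3 was left out, and 1.99 for the 2260 regions chosen by the same rule within the 5 samples of run C (MEF 1, the ES lines and Aid-/- iPS 3), below that of the MEF-shared regions with a pluripotent peak.

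By position, 41 members (15.8%, exact 95% interval 11.6 to 20.8) lay at a promoter, taken as 1000 bp upstream to 500 bp downstream of a protein-coding start. A further 83 (31.9%) held an exon, 39 (15%) lay in introns and 97 (37.3%) between genes. Promoters were at 5.18% of the MEF-shared regions with a pluripotent peak, 2.96% of the regions of all 14 samples and 2.23% of the pluripotent-only regions. An exon, at a promoter or not, was held by 116 members (44.6%), and 75 (28.8%) held an untranslated region. Over all merged regions these shares were 26.1% and 11.3%. Among the 526 MEF-shared regions with exactly 1 pluripotent peak, 43.2% held an exon and 12.5% lay at a promoter. Among those with 10, 48.0% held an exon and 6.26% lay at a promoter. The exon share was thus not particular to the members. Exonic members held the most tags per M of the 4 locations, with a median of 4.12 against 2.68 to 2.70 in the other locations. These tags were not divided by length, and exonic members were the longest, with a median of 1017 bp against 911 to 958 bp. Their median fold enrichment was the lowest, 11.7 against 11.9 to 15.3.

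**Figure D3:**
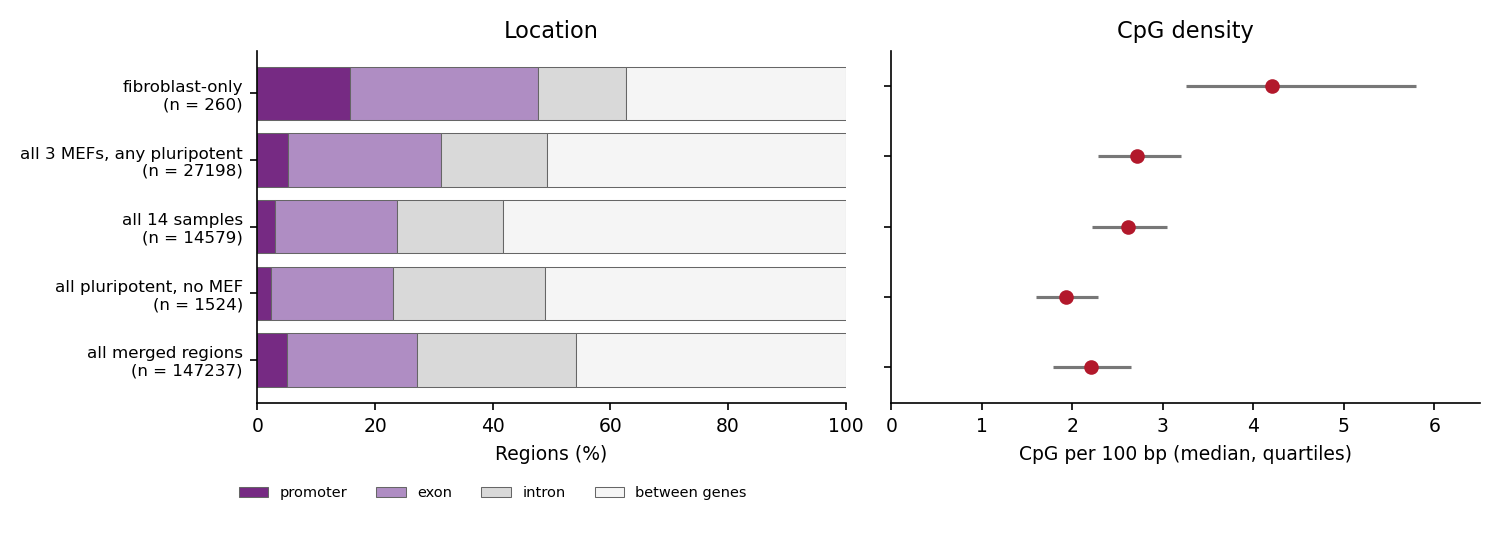
Left, location of the fibroblast-only regions and of 4 other sets of merged regions, as percent of each set. Right, CpGs per 100 bp, with points for medians and lines for quartiles. Promoters make up 15.8% of the fibroblast-only regions and 2.23 to 5.18% of the other sets.

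In the 41 promoter members, the mean summit lay within 500 bp of a start in 27, with a median of 67 bp downstream and a range from -1277 to 1365 bp, counted downstream. The summit was upstream of the start in 14 and downstream in 27. After Gp1bb and 9330171B17Rik the strongest promoter was that of Tbx1, a T-box factor of the pharyngeal arches, at chr16:18587926-18589401 with 183, 169 and 172 tags. It neighbours the Gp1bb region on the same chromosome, and no pluripotent sample had a peak within 1 kb. Other promoter members, named after their values were seen, included Scx (a tendon factor), Nr4a3 (an orphan nuclear receptor), Ebf2, Gdf6 (a growth factor of joints), Comp (a cartilage matrix protein) and Dll1 (a Notch ligand). Their tags ran from 15, at Dll1 in MEF 2, to 253, at Scx in MEF 3. These genes were picked from the 41, which also include Gmeb2, Atad3a, Vkorc1l1, Slc44a2 and Trim41, so they show no common theme. None of the 42 genes of the mesenchymal list had a member within 5 kb.

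Among the gene lists, developmental transcription factors had the highest share of genes with a member within 5 kb, though not at promoters. Of 155 listed genes, 17 (10.97%) had a member in the gene or within 5 kb, beside 219 of all 21281 protein-coding genes (1.03%). At promoters it was 3 of 155 (1.94%), namely Hoxa2, Hoxc4 and Tbx1, beside 42 of 21281 (0.197%). The imprinted list (2 of 44, 4.55%) and the epithelial list (1 of 32, 3.1%) had higher shares at promoters. Of listed factors with any MEF-shared region within 5 kb, 17 of 65 (26.2%) had a fibroblast-only one, against 2.35% for all protein-coding genes. Of the 17 genes, 11 are Hox genes, several of which share a member, so the genes are not independent. The other 6 were Dlx2, Gata6, Irx5, Msx1, Tbx1 and Tbx2. The Gata6 exon region, CpG-rich at 9.76 per 100 bp, held 95, 68 and 97 tags. That of Irx5 held 68, 48 and 69, and that of Msx1 56, 44 and 18, so that MEF 2 was lowest at the former pair and MEF 3 at Msx1.

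The Hox genes set the position of cells along the body axis, and they lie in 4 clusters. The Hoxa cluster held 6 members among 8 MEF-shared regions, and a seventh member lay on its Evx1 side. Hoxb held 3 of 10, Hoxc 1 of 3 and Hoxd 0 of 7. The promoter of Hoxa2 held 142, 78 and 72 tags in MEF 1, 2 and 3 at chr6:52114909-52116223. In Hoxa3, whose annotated transcripts span most of this side of the cluster, the region at chr6:52118417-52119416 held 106, 95 and 57 tags. That at chr6:52120098-52121140, the window printed above, held 93, 70 and 54. MEF 1 had the most tags in all 3 of these regions and MEF 3 the fewest. Further along lay regions at 5730596B20Rik (66, 55 and 19 tags), Hoxa4 (40, 40 and 21) and Hoxa7 (31, 40 and 23). Hoxa3 had the most members of any gene in its body or within 5 kb (6 of 7 MEF-shared regions), followed by 2700086A05Rik with 4 and Hoxa2 with 3. In the pluripotent samples the cluster was not empty: between 0 (ES 2) and 6 (Aid+/+ iPS 1, Aid-/- iPS 4 and ES 3) of its 20 merged regions held a peak, against 9 or 10 in the MEFs. Among these 20 are the 6 members, which by the rule hold a peak of every MEF and of no pluripotent sample. Most of the MEF count thus repeats the choice of regions, and the contrast is not a separate result. In the Hoxb cluster the members near Hoxb8, at Hoxb4 and at Hoxb3 held 71, 54 and 39, then 52, 28 and 22, then 20, 15 and 34 tags. The Hoxc4 promoter, at chr15:102864838-102865609, held 33, 28 and 22 tags.

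**Figure D4:**
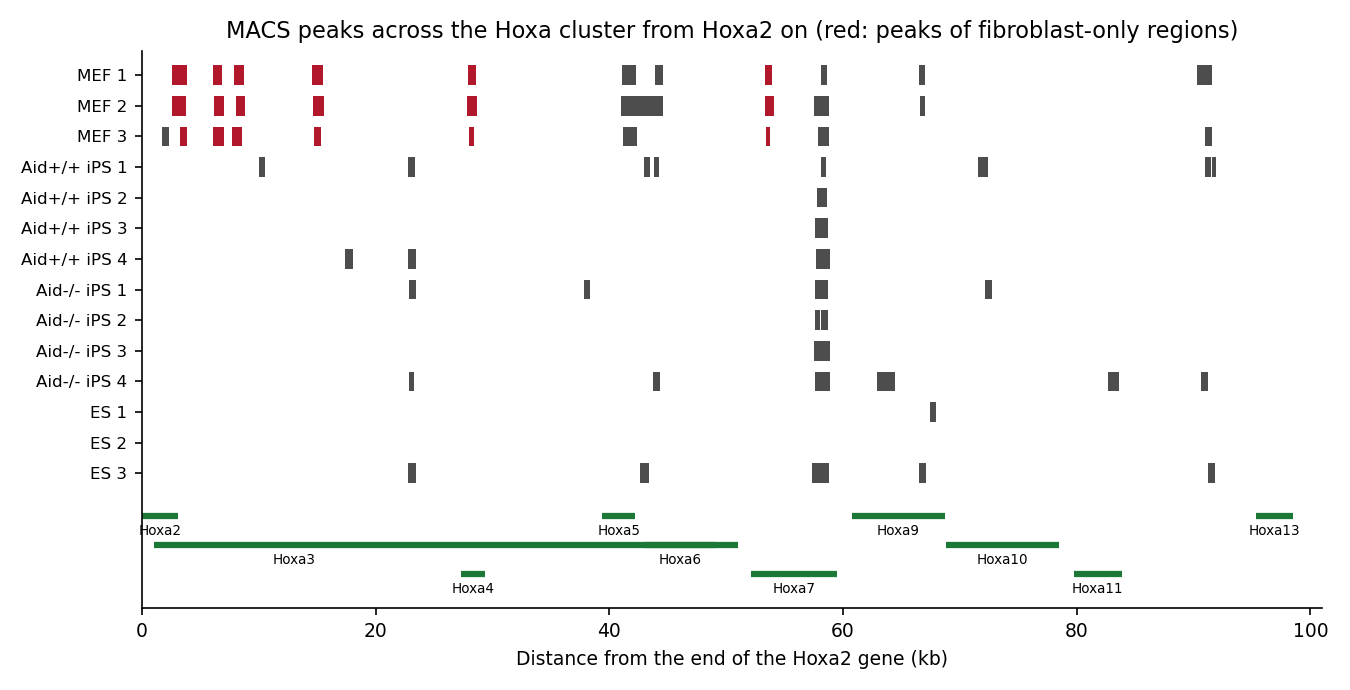
Peaks of the 14 samples across the Hoxa cluster from Hoxa2 onward, in kb from the outer end of Hoxa2, with genes in green. Red peaks belong to the 6 fibroblast-only regions, which are grouped between Hoxa2 and Hoxa7, and dark grey ones to other regions.

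Imprinted genes, which are expressed from 1 parental allele, had a member at 2 of 44 promoters (4.55%, beside 0.197% for all protein-coding genes) and within 5 kb of 3 of 44 (6.82%, beside 1.03%). Many imprinted promoters held a MEF-shared region: 2 of 20 such promoters had a fibroblast-only one, beside 42 of 1464 over all protein-coding genes. Of the 33 imprinted genes with a MEF-shared region within 5 kb, 3 (9.09%) had a fibroblast-only one, beside 2.35%. The promoter region of Slc38a4, an amino acid transporter, at chr15:96884690-96886620 held 154, 141 and 85 tags. That of Mkrn3, in the domain of the mouse that corresponds to the Prader-Willi region, at chr7:69563711-69565131 held 49, 56 and 25 tags. MEF 3 was low at both. In the same domain the promoter of Peg12, which is not on the list and was named after its values were seen, held 97, 95 and 163 tags at chr7:69608086-69609601 with 8.51 CpGs per 100 bp. There MEF 3 was the highest. No pluripotent peak lay within 5 kb of Mkrn3, and the nearest to Peg12 was 11079 bp away. The third gene within 5 kb was H13, with an exonic region of 65, 31 and 71 tags.

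Pluripotency genes had no member at a promoter (0 of 40, beside 0.197% of all protein-coding genes) and a member within 5 kb at 2 of 40 (5%, beside 1.03%), lists too short for a count of 0 to set them apart. At Zfp42, which encodes the ES cell marker Rex1, an intronic region (chr8:44390708-44391507) held 52, 57 and 22 tags. At Sall1, a zinc finger partner of Nanog, an intronic region (chr8:91564596-91565442) held 28, 48 and 24. In each of them 1 culture stood apart, MEF 3 below at Zfp42 and MEF 2 above at Sall1. The nearest pluripotent peak was 6760 bp away at Zfp42 and 491 bp away at Sall1. Of 32 epithelial genes only Marveld2, a protein of the contacts where 3 epithelial cells meet, had a member, at its promoter (chr13:101386244-101387201), with 167, 133 and 203 tags and 8.25 CpGs per 100 bp.

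In the other lists the counts were small. In the shorter ones, the 1.03% of all protein-coding genes with a member within 5 kb would also give small counts. None of 36 germline, 42 mesenchymal, 24 neural or 18 DNA methylation genes had a member within 5 kb, although MEF-shared regions lay within 5 kb of 29, 18, 10 and 9 of them. Over all protein-coding genes 2.35% of those with such a region had a fibroblast-only one, so that these zeros are not a result about the lists. Among the 36 germline genes, 26 had a MEF-shared region at the promoter, each with a peak in at least 1 pluripotent sample. Of 29 haematopoietic genes Lyl1 alone (3.45%) had one, in an exonic region shared with Nfix. Zinc finger genes had one at 6 of 380 (1.58%), olfactory receptors at 2 of 1090 (0.183%), microRNAs at 3 of 476 (0.63%), and vomeronasal receptors (319) and clustered protocadherins (25) at none. The shares of both receptor lists and of the microRNAs were below 1.03%. MEF-shared regions lay within 5 kb of 88 olfactory receptors, 33 vomeronasal receptors and 109 microRNAs. Among the 88 and the 109, 2.27% and 2.75% had a fibroblast-only region, beside 2.35% over all protein-coding genes, and among the 33 none did.

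In 202 members the sequence was not shared with another member, and 58 fell into 5 families that share at least 10% of their 24-bp words. Reads from near-identical copies cannot be assigned to 1 of them with certainty, and how the authors placed such reads is not given in the sources used here. One family lay wholly on chromosome 12 (chr12:19049886-24320045), with 12 members, 11 of them between genes. They were the most CpG-dense of the 5 families, with a median of 7.49 CpGs per 100 bp (7.09 to 9.83) and 65.4% GC, and they held 2.46 to 10.98 tags per M on average over the 3 MEFs. Of 23 MEF-shared regions with this sequence, 10 also held a pluripotent peak. A smaller family of 4 members lay on chromosome 10 (chr10:81149765-81442055), near Gm8112, Gm8264, Gm8137 and Gm8158, and all 4 MEF-shared regions with its sequence were fibroblast-only. To show how alike the copies are, the 200-bp summit window of the strongest member of each family is given with its best ungapped match in 3 other members, CpGs in capitals.
chromosome 12, near Gm3944, chr12:19050577-19050776, plus strand: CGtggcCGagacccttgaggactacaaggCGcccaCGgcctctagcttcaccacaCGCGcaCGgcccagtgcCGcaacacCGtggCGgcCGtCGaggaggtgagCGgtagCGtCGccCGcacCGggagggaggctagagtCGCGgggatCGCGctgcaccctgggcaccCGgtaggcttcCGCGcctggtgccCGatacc
chromosome 12, near Gm17391, chr12:23786918-23787117, minus strand: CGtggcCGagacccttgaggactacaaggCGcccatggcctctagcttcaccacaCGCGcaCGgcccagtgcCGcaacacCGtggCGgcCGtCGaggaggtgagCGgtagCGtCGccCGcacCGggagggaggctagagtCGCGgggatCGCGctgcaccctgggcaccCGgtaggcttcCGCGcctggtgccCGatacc
chromosome 12, near Gm17680, chr12:22323892-22324091, minus strand: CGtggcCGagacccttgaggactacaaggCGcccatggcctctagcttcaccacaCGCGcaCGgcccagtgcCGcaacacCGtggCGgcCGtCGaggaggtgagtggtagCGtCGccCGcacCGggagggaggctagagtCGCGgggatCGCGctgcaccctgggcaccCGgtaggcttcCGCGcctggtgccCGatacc
chromosome 12, near Gm10330, chr12:24111715-24111914, minus strand: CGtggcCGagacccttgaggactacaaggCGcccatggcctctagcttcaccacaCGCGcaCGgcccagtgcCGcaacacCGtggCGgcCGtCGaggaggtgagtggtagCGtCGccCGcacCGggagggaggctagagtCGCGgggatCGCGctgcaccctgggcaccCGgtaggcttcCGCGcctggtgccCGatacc
chromosome 10, near Gm8264, chr10:81274997-81275196, plus strand: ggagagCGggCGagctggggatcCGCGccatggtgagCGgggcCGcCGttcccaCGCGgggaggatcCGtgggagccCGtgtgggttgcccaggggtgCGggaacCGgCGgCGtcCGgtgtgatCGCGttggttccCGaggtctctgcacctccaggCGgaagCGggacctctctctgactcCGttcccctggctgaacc
chromosome 10, near Gm8158, chr10:81441488-81441687, plus strand: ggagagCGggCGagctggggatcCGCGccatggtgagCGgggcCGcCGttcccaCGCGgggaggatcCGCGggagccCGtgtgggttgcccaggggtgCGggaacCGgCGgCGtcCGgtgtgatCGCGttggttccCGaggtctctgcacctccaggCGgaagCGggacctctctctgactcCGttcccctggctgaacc
chromosome 10, near Gm8112, chr10:81150229-81150428, plus strand: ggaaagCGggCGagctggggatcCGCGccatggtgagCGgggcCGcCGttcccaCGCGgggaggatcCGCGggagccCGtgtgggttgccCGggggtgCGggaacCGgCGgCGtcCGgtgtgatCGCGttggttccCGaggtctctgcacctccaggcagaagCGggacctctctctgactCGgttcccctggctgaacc
chromosome 10, near Gm8137, chr10:81309333-81309532, plus strand: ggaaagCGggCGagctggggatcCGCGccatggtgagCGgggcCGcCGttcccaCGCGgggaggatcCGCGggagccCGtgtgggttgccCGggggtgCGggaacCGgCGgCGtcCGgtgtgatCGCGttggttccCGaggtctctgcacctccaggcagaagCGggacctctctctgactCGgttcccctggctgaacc
On chromosome 12 these 3 matches were 99.5%, 99.0% and 99.0% identical to the first window, and the 8 remaining members of the family 52.0% to 75.0%, without gaps. On chromosome 10 identities were 99.5%, 97.5% and 97.5%. The printed windows held 23 to 25 CpGs on chromosome 12 and 22 or 23 on chromosome 10. In MEF tags the chromosome 10 copies differed, with 32, 29 and 44 near Gm8264, 65, 37 and 68 near Gm8158, 46, 23 and 72 near Gm8112 and 32, 27 and 65 near Gm8137. MEF 2 was the lowest and MEF 3 the highest in all 4.

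The largest family had 37 members on 14 chromosomes, 28 of them between genes, with a median of 2543 copies of the central 24-bp words in the genome and 2.92 CpGs per 100 bp. Its sequence is common in MEF-shared regions, where 3145 of 3182 such regions also held a pluripotent peak. Members whose central sequence occurs 10 or more times made up 15.4% of the 260, against 46.3% of the MEF-shared regions with a pluripotent peak. The share was 15.1% in the pluripotent-only regions and 17.3% in all merged regions, so the members' share was close to these. Members with a unique centre numbered 189 (72.7%) and had a median of 4.43 CpGs per 100 bp. Unique centres made up 76.0% of the pluripotent-only regions and 76.3% of all merged regions.

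By chromosome, the share of MEF-shared regions that were fibroblast-only ran from 0.399% on chromosome 5 (8 of 2003) to 1.78% on chromosome 12 (22 of 1233), with 1.76% on chromosome 8 (28 of 1592). On chromosome 12 the family above makes up 12 of the 22. Linking members less than 1 Mb apart gave 5 groups of at least 4 members. Besides the Hoxa and chromosome 12 groups these were 7 members on chromosome 8 (chr8:72897021-74205013, from Comp to Jak3), 7 on chromosome 10 and 5 on chromosome 1. In the chromosome 8 group both Jak3 regions, in a gene of cytokine signalling, held 137, 69 and 121 and 80, 106 and 90 tags.

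Absence in a sample that did not take part in the choice was examined next. When 1 pluripotent sample was left out of the rule, 83.1% to 100% of the regions chosen by the other 13 had no peak in the left-out iPS clone, and 97.7% and 93.2% had none in ES 2 and ES 1. Over all MEF-shared regions the same shares were 7.29% to 17.3% for the iPS clones and 43.6% and 23.1% for these lines. ES 3 stood apart, with no peak in 39.8% of 654 chosen regions (exact 95% interval 36.0 to 43.6), beside 2.56% of all MEF-shared regions. For the MEFs the regions chosen without them held a peak in 82.0% (MEF 1), 79.5% (MEF 2) and 63.4% (MEF 3), below the 96.9%, 98.1% and 71.8% of all regions shared by the other cultures. Intervals cover counting error only.

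The genotypes were compared in the same way. Of 1767 MEF-shared regions with no peak in any Aid+/+ iPS clone, 720 (40.7%) had none in any Aid-/- clone either, and 25 (1.41%) had one in all 4. Conversely, of the 908 regions absent from all Aid-/- clones, 720 (79.3%) were absent from all Aid+/+ clones and 1 had a peak in all 4. Over all MEF-shared regions, absence from all 4 clones was found in 6.44% for Aid+/+ and 3.31% for Aid-/-. Of the 720 regions absent from all 8 iPS clones, 663 had no peak in ES 1, 705 none in ES 2 and 290 none in ES 3, and 260 had none in any.

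Whether iPS clones of the 2 genotypes differ in how much fibroblast methylation is shared was tested over samples with an exact two-sided permutation test. A peak was found at 86.2% ± 3.78 of the MEF-shared regions in Aid+/+ clones (SD, n = 4) and at 90.4% ± 3.36 in Aid-/- clones (SD, n = 4). The exact p was 0.143 (0.412 after Benjamini-Hochberg adjustment over the 4 tests made), where the smallest possible p is 0.0286. The clones were split by processing run: in run A, 91.5% for the 1 Aid+/+ clone stood beside 91.0% to 92.7% for 3 Aid-/- clones, while the 3 Aid+/+ clones of run B had 82.7% to 85.7% and the Aid-/- clone of run C 85.4%. Within run A the means were thus 91.5% and 92.0%, while the difference over all clones was -4.18 points. By the numbers that open the clone names, the clones come from 3 reprogramming experiments, and 1 of these gave clones of both genotypes. Its Aid+/+ clones (iPS 3 and 4) had 84.8% and 85.7%, below 92.3% and 91.0% in its Aid-/- clones (iPS 1 and 2). The difference was -6.40 points (exact permutation p = 0.333, the smallest that 2 against 2 allows). The former pair was in run B and the latter in run A, so within this experiment genotype and run cannot be told apart. All iPS clones, at 88.3% ± 3.99 (SD, n = 8), were not distinguished from ES lines at 76.9% ± 20.5 (SD, n = 3; exact p = 0.206, adjusted 0.412). The ES lines ranged from 56.4% (ES 2) to 97.4% (ES 3), below and above every iPS clone. Without ES 3 the unadjusted exact p became 0.0444, the smallest possible for the samples left. Without ES 2 the difference was 1.07 points (unadjusted exact permutation p = 0.756).

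The surroundings of the fibroblast-only regions were not free of pluripotent peaks. A peak of at least 1 pluripotent sample lay within 1 kb of 76 members and none within 5 kb of 70 (26.9%). The nearest was at a median of 2100 bp (13 to 87128 bp). In 63 members all 11 samples had a peak within 5 kb. Exonic members had such a neighbour within 1 kb most often, in 44.6%, against 20.5% to 26.8% in the other 3 locations. The comparisons of samples that follow rest on members chosen by the peaks of these same samples. Any region that a pluripotent peak overlapped had been removed, so the p-values cannot decide whether the groups differ. Aid+/+ clones had a peak within 1 kb of 15.4% ± 2.26 of the members and Aid-/- clones of 16.2% ± 0.831 (SD, n = 4 each; exact permutation p = 0.600, adjusted 0.600). For all iPS clones the share was 15.8% ± 1.63 (SD, n = 8) and for ES lines 11.8% ± 9.36 (SD, n = 3; exact permutation p = 0.327, adjusted 0.436). ES 2 had the lowest share, 3.46%, and ES 3 the highest, 21.9%, in the order of their peak numbers. Without ES 3 the latter comparison had an unadjusted exact p of 0.0444, the smallest possible for the samples left, and without ES 2 one of 0.933. Within run A the clones had 15.4% (Aid+/+) and 15.8% to 17.3% (Aid-/-), and in run C the Aid-/- clone had 15.4% and the ES lines 3.46% to 21.9%.

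**Figure D5:**
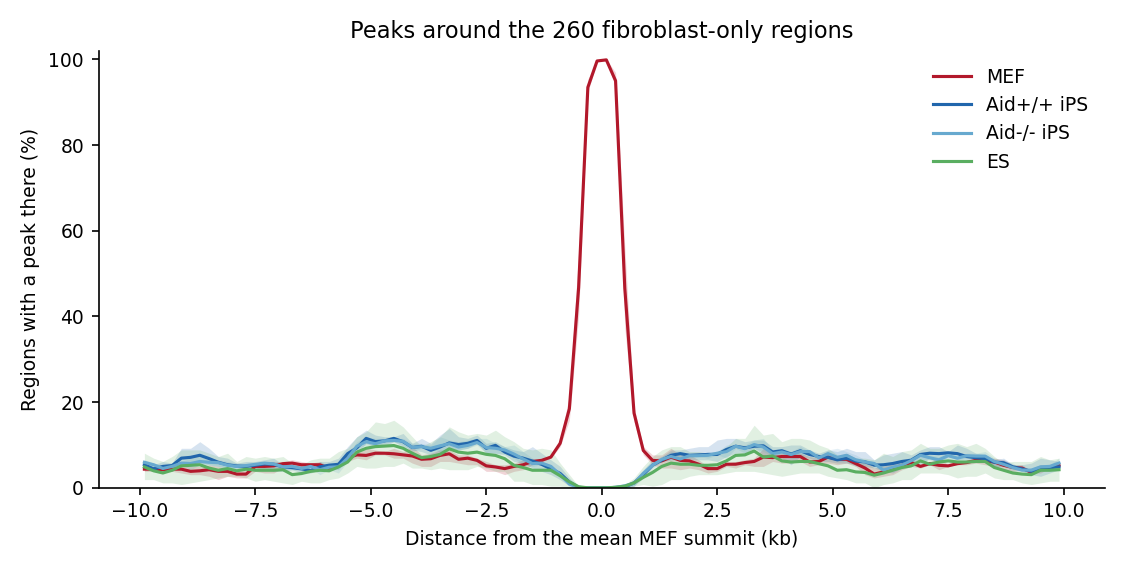
Percent of the 260 fibroblast-only regions with a peak in each 200-bp step of distance from the mean MEF summit, as the mean of each group with the range of its samples shaded. The MEFs reach 99.9% at the summit, which the rule fixes, while no pluripotent sample has a peak in the steps beside the summit, and beyond 1 kb the group means reach at most 11.5%.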

How the data were processed

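MBD-captured DNA of 14 samples had been sequenced, and the authors had aligned reads with BWA 0.5.9rc1 after CASAVA 1.8.1 and called peaks in each sample with MACS (1.4.1 or 1.4.0rc2) without a control library, at a p cutoff of 1e-05 with at most 2 duplicate tags and a 10 kb local background, per the file headers and the submitters' processing notes. The deposited values are tag counts per peak, a score derived from −log10 of the peak p-value, and the fold enrichment over background, on NCBI build 37 (mm9). How reads with several placements were treated is not given in the sources used here. Genes were taken from the GENCODE vM1 annotation of that build.

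Peaks were merged and annotated with Python 3.11.15, pandas 2.3.3, numpy 2.4.6, scipy 1.17.1 and numba 0.67.0, and the merging was tested on simulated peaks. Tag densities were scaled by each sample's filtered tags and not by region length. Samples were compared with exact two-sided permutation tests. Runs were inferred from the MACS version and the start of the job name in the file headers. Summit sequences of 7 of the 29 named regions were printed, and the others are not reported here. Replicate numbers of the MEFs, clones and lines only name samples. Regions were named by rule: the 12 strongest, promoters of listed genes, members near pluripotency genes, genes with most members, the 3 longest and the weakest. The members and the gene lists were chosen with earlier results of these data known. Alternatives covered thresholds, merging, promoter width, runs and leaving out each sample.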

Additional observations from a re-analysis of the deposited data

How the results depend on the processing

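The number of fibroblast-only regions, 260, became 554 when peaks of every sample were limited to p-values up to 1e-10, 2864 with the same number of most significant peaks in every sample, 143 with that p-value in the MEFs only, and 2260 within the run of MEF 1. In the same order without the third setting, the promoter share was 11.01%, 7.65% and 10.3%, the exon share 37%, 30.5% and 27.0%, and the median CpG density 3.59, 3.47 and 1.99 per 100 bp. The promoter share was 30.4% with promoters of 2 kb on both sides. Stretches common to the MEFs with no overlapping pluripotent peak had 5.08 CpGs per 100 bp. Of 3 alternatives chosen after seeing the data, members with a central sequence of 1 copy had an exon in 59.8%, leaving out the 13 members between 18 and 25 Mb of chromosome 12 and the 7 of the Hoxa group left 240, and keeping only the reprogramming experiment with clones of both genotypes gave genotype differences of -6.40 and -0.19 points. Leaving out 1 sample at a time gave 260 to 664 regions (664 without ES 3, 418 without MEF 3), promoter shares of 11.6% to 17.9%, exon shares of 39.7% to 48.6% and CpG medians of 3.45 (without ES 3) to 4.40. With a p-value of at most 1e-10 in the pluripotent samples, the difference between Aid+/+ and Aid-/- clones in members with a peak within 1 kb turned from -0.77 to 0.58 points (exact permutation p = 0.629). Between iPS clones and ES lines, leaving out 1 sample at a time moved the difference in members within 1 kb from -0.19 (without ES 2, exact permutation p = 0.933) to 9.04 points, and that in MEF-shared regions from 1.07 to 21.6 points. Both upper values were without ES 3 and had an exact permutation p of 0.0444, the smallest possible for the samples left. The causes were not tested, and the members with a peak within 1 kb were counted with the peaks that also chose the members. Filtered tags, though not total tags, were most numerous in the MEFs, and a missing peak sets no level. No paired analysis was possible because the replicate numbers were given in sample order and pair no samples, and a single experiment held both genotypes.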
